A study of Mus musculus with 14 samples.

Results

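The vessels of the newborn mouse paw were described through 36 genes that mark blood and lymphatic endothelium, the cells that line blood and lymph vessels. The genes were chosen by name and matched by Ensembl identifier to the deposited gene table. Each of the 36 matched 1 row of the 56691 in the table, and all 36 passed the filter on low counts that left 21619 genes for testing. They were sorted by role into 28 pan-endothelial genes (11 of junctions and adhesion, 7 receptors for growth factors and lipids, 4 transcription factors and 6 of vessel function), 3 tip cell genes, 2 partners of tip cell ligands and 3 lymphatic genes. The libraries came from whole paws, a mixture of epidermis, dermis, muscle, bone and vessels, and RNA was depleted of ribosomal RNA before sequencing. There were 4 groups: wild-type (WT) paws at postnatal day 0 (P0, n = 4), paws labelled Krt9-/- at P0 (n = 2), WT paws at P3 (n = 5) and Krt9-/- paws at P3 (n = 3). Krt9 encodes a keratin of the thickened epidermis of palms and soles. The labels give a day, genotype, sex and litter for each library but neither the strain, the kind of Krt9 allele, nor whether 1 paw or several were used. In whole tissue, fewer endothelial cells and less RNA per endothelial cell cannot be told apart.

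Blood endothelial cells are held together by the cadherin and claudin proteins of their junctions and respond to vascular endothelial growth factor (VEGF) through the receptor encoded by Kdr, while the related receptor from Flt1 binds VEGF and limits its action. A sprouting vessel is led by a tip cell that makes the Notch ligand Dll4, the secreted proteoglycan Esm1 and the peptide apelin (Apln), and the cells behind it carry the apelin receptor Aplnr. Lymphatic endothelium arises under the transcription factor Prox1, responds to VEGF-C through the receptor from Flt4 and carries the hyaluronan receptor Lyve1. Skin vessels keep growing and remodelling after birth. Several of these markers are also made elsewhere: Cd34 by connective tissue cells, Lyve1 by some macrophages, Prox1 by muscle, and Pecam1 and Vwf by platelets and their precursors.

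Total counts ran from 28947715 to 41004173 per library. The Krt9 transcript was low in every P0 library (2.09 to 7.61 CPM, counts scaled by library size, in WT and 5.32 to 6.09 in Krt9-/-), so it checked no label at P0. At P3 it was 32.9 to 83.0 CPM in WT and 7.74 to 25.2 CPM in Krt9-/-. WT replicate 4 of P0, labelled female, had neither Xist (0.181 CPM) nor the Y-linked Ddx3y (0.155 CPM) at the levels of a female or male paw, and results that rest on P0 WT are given without it where that changed a call. The columns of the table run through the alphabet in 2 stretches, here block A with 8 libraries and block B with 6. No label names them a batch. Each group has libraries in both, and P3 Krt9-/- has 1 in A and 2 in B, whereas P3 WT has 3 in A and 2 in B. With block as a term in the fit, 23.2% of all genes and 24 of the 36 endothelial genes differed between blocks, 22 of them lower in B and 2 (Cd34 and Ecscr) higher, with a median difference of -0.38 on the log2 scale. Comparisons are therefore also given within blocks.

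All 36 genes were detected in every library. Levels between genes were compared as CPM per kilobase of exon, averaged over the 14 libraries. On that scale the order opened with Cd34, a sialomucin of vessel and connective tissue cells (38.2), Lyve1 (29.8), the vascular cadherin gene Cdh5 (29.1), Plvap of the diaphragms of fenestrated capillaries (28.9) and Cldn5 of the tight junction (28.8). It closed with Notch4 (2.18), Prox1 (1.99), the arterial transcription factor gene Sox17 (1.91) and Esm1 (1.49). Among the lymphatic genes Lyve1 thus stood far above Flt4 (4.29) and Prox1. The neighbours Lyve1, Cdh5, Plvap and Cldn5 differed by less than the spread of any of them between libraries. The exons of 27 of the 36 genes overlapped no exon of another gene in the reference annotation, and those of Cd34, Dll4, Ecscr, Egfl7, Eng, Nos3, Prox1, Rasip1 and Sox17 overlapped one on the opposite strand. Exons of Egfl7 also overlapped Gm20532 (264 bases) and Mir126a (73 bases) on the same strand, and those of Rasip1 overlapped Izumo1 (654 bases). The sources used here do not give whether counting used the strand, so reads in the opposite-strand stretches cannot be told apart. Strand does not separate the reads of the same-strand stretches.

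The promoters of 4 genes that changed with day, 3 pan-endothelial and 1 of tip cells, are shown because they are the members with a tested change for which the promoter table had an entry. Each runs from 250 bases before to 50 bases after the annotated start in RefSeq on GRCm38.p6, 5′ to 3′ on the gene's strand, with AGGAAG (or CTTCCT, the same letters on the other strand), the core that ETS factors such as Erg bind, and AACAAT (or ATTGTT), the core that SOX factors bind, in capitals.
Emcn, chr3:137340828-137341127, plus strand: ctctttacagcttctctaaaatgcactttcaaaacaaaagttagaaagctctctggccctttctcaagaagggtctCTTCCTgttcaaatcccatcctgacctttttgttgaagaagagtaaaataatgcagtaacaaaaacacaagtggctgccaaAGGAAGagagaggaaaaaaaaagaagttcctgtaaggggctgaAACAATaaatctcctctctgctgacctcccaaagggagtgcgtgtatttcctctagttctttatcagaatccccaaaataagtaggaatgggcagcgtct
Robo4, chr9:37401722-37402021, plus strand: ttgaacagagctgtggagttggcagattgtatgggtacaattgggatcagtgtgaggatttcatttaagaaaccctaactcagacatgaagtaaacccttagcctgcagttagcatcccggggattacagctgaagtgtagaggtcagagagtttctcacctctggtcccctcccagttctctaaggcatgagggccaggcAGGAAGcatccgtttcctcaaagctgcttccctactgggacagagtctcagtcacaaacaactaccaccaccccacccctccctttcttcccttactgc
Cd34, chr1:194938571-194938870, plus strand: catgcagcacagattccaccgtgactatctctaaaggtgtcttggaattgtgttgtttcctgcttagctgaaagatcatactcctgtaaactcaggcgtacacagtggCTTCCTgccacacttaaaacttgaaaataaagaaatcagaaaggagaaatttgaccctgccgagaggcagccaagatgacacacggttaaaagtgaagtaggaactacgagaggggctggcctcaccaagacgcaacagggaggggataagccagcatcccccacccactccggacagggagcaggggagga
Esm1, chr13:113209409-113209708, plus strand: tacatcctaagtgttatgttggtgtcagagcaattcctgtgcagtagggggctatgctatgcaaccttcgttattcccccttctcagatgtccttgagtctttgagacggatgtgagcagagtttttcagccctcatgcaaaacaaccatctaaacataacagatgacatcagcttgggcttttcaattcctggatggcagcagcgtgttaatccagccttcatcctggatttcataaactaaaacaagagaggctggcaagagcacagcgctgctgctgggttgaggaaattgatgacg
The Emcn window held 2 AGGAAG matches and 1 AACAAT match, those of Robo4 and Cd34 held 1 AGGAAG match each, and that of Esm1 held none of these letters. Of the 36 genes 19 had an entry. AGGAAG was in a window of 11 of those 19 genes (57.9%) and of 38.4% of the 27025 genes in the table, and AACAAT in 3 of 19 (15.8%) and 12.2% of genes. These shares are descriptions of 300-base windows and not binding sites.

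**Figure D1:**
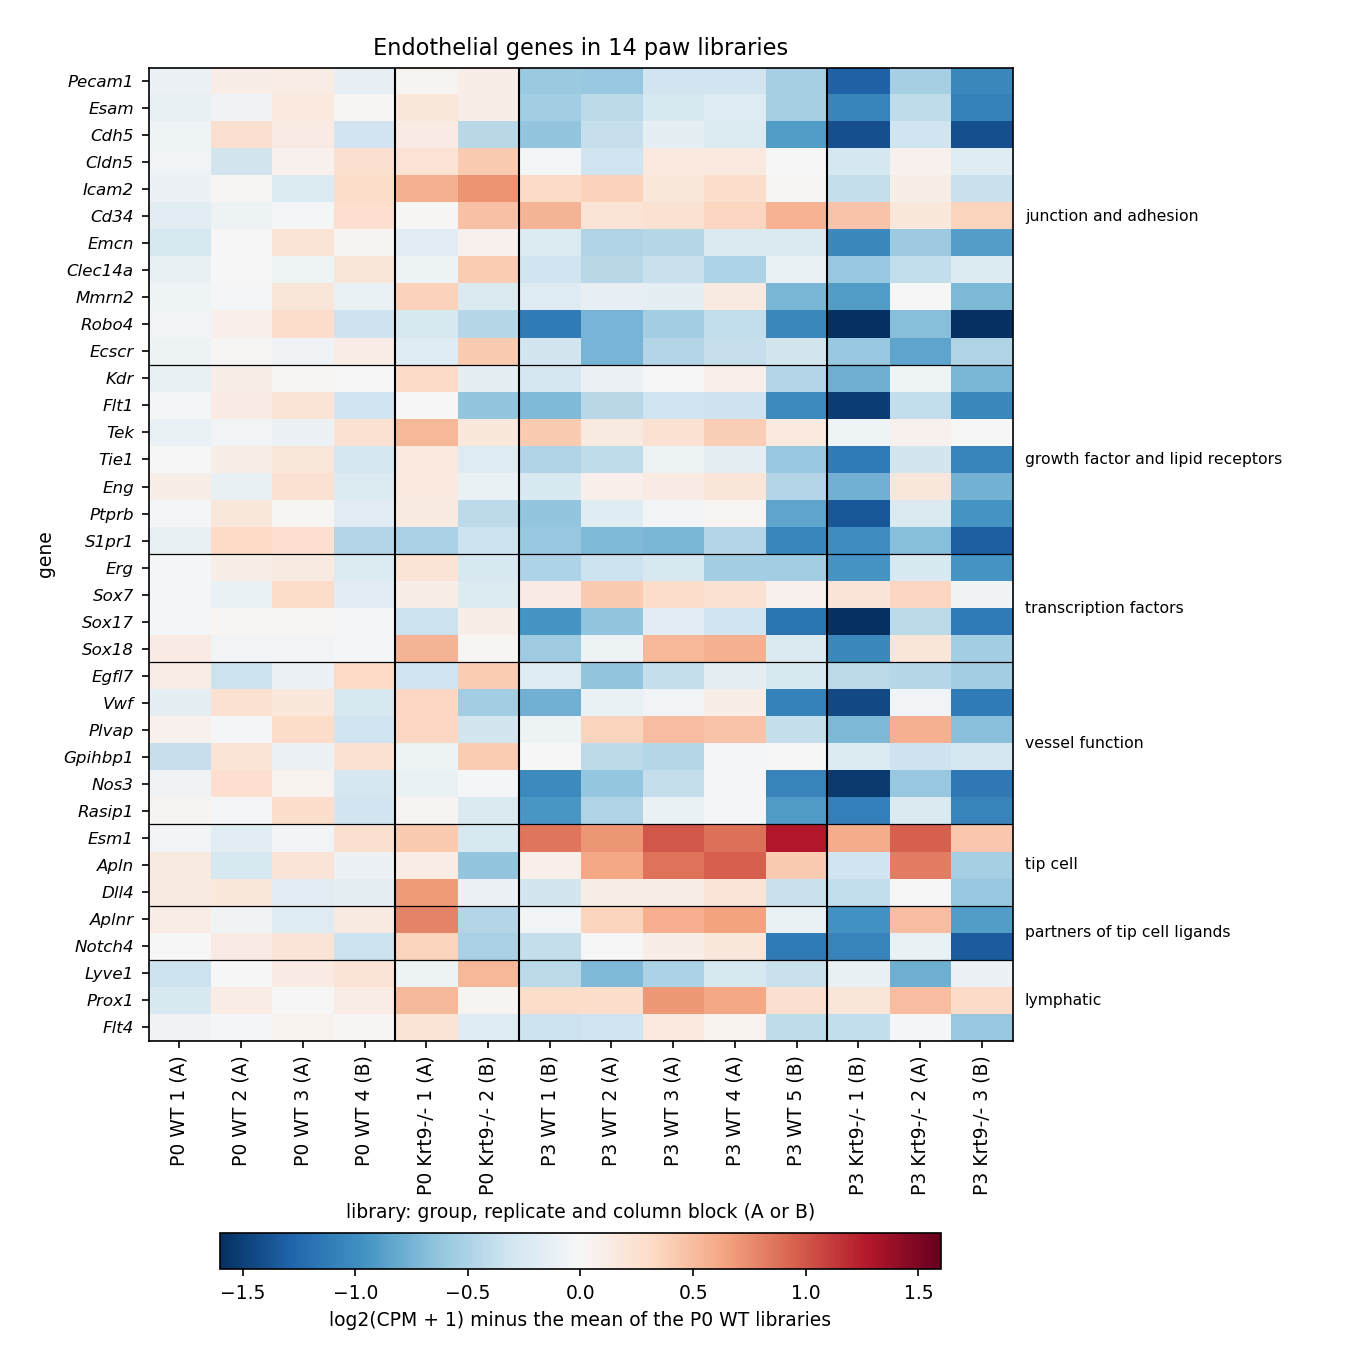
Heat map of the 36 endothelial genes (rows, grouped by role) in the 14 libraries (columns, with group, replicate and column block), coloured by log2(CPM + 1) minus the mean of the 4 P0 WT libraries. Most pan-endothelial rows are bluer at P3, most of all in Krt9-/- replicates 1 and 3 of block B, while Esm1 is red in all 8 P3 libraries.

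Between P0 and P3 in WT paws, the tip cell gene Esm1 rose and a few junction, adhesion and receptor genes fell. Of the 36 genes 6 passed the test, 2 higher and 4 lower at P3 (16.7% of the members). Over all genes 16.6% passed, 8.49% higher and 8.07% lower, so the number of calls among endothelial genes was that of the background. The median log2 fold change was -0.26 over the 36 genes, with 26 below 0, and -0.01 over all genes tested. By role the median was -0.33 for the 28 pan-endothelial genes, 0.64 for the 3 tip cell genes and -0.17 for the 3 lymphatic genes. The values of the groups did not overlap for 9 of the 36 genes, against 16.7% of all genes.

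Pecam1, an adhesion molecule at endothelial contacts, stood at 177, 203, 205 and 172 CPM in the 4 P0 WT libraries. At P3 the 5 WT libraries had 124, 123, 152, 152 and 130.1 CPM. Every P3 WT library was below every P0 WT library, a fall of 0.46 on the log2 scale (SE 0.14, edgeR adjusted p = 0.0334). Robo4, a receptor that stabilises vessels, had 33.6, 36.9, 42.6 and 27.5 CPM at P0 and 15.5, 20.4, 23.6, 26.2 and 16.5 CPM at P3. It was 1.71-fold lower at P3 with no overlap (log2 fold change -0.78 ± 0.25 SE, edgeR adjusted p = 0.0498). Ecscr, an endothelial surface protein, went from 20.8, 22.5, 21.3 and 24.1 CPM to 17.8, 12.8, 15.7, 17.0 and 17.8 CPM, again with no overlap (log2 fold change -0.43 ± 0.14 SE, edgeR adjusted p = 0.0451). S1pr1, the receptor for the blood lipid sphingosine-1-phosphate, was the most changed of the receptor genes. Its P0 WT values were 61.3, 83.3, 80.2 and 48.0 CPM and its P3 WT values 43.5, 40.4, 39.9, 48.0 and 31.9 CPM. The lowest P0 library, replicate 4, and the highest P3 library, replicate 4, met at 48.0 CPM without crossing, and the gene was 1.68-fold lower at P3 (log2 fold change -0.74 ± 0.18 SE, edgeR adjusted p = 0.0122).

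Cd34 moved the other way. Its P0 WT libraries had 208, 219, 229 and 281 CPM and its P3 WT libraries 338, 271, 277, 294 and 343 CPM. Only replicate 4 of P0 overlapped the P3 values, and Cd34 was 1.32-fold higher at P3 (log2 fold change 0.40 ± 0.13 SE, edgeR adjusted p = 0.0493). The calls of Pecam1, Cd34, Robo4 and Ecscr were each lost when any one of replicates 1 to 3 of P0 WT was left out. Without P0 WT replicate 2 or 3 no endothelial gene was called lower, and without P0 WT replicate 1 only S1pr1 was. Over all genes 864, 849 and 725 were called lower without P0 WT replicate 1, 2 and 3, against 1745 with all 14 libraries. Leaving out a P3 WT library gave 1 gene called lower (without replicate 2 or 5) or 2 (without replicate 1, 3 or 4) and Esm1 as the 1 gene called higher. Over all genes these fits called 1144 to 1469 lower and 1267 to 1558 higher. Without P3 Krt9-/- replicate 2, which enters through the shared spread, 4 were called higher and 8 lower in WT, against 20% of all genes in that fit. With litter as a block in limma voom, Cd34 (limma adjusted p = 0.0521) and Ecscr (limma adjusted p = 0.0526) were not called, and the other 4 were. Without P0 WT replicate 4, the library without clear sex markers, Tek was also called higher and Ecscr was not called.

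Other pan-endothelial genes did not pass the test in WT. Cdh5 ran from 146, 183, 168 and 124 CPM at P0 to 98.7, 119, 138, 132 and 82.1 CPM at P3 with overlapping groups (log2 fold change -0.45 ± 0.24 SE). Kdr, the main VEGF receptor, was 68.2, 79.4, 75.0 and 74.6 CPM at P0 and 61.6, 69.7, 74.0, 78.8 and 53.2 CPM at P3, and its groups overlapped (log2 fold change -0.14 ± 0.16 SE). Flt1 had 47.5, 53.1, 56.8 and 38.5 CPM at P0 and 29.2, 35.4, 38.7, 38.3 and 23.5 CPM at P3, overlapping only through replicate 4 of P0 and replicate 3 of P3 (log2 fold change -0.57 ± 0.23 SE). The angiopoietin receptor gene Tek was 38.6, 40.3, 39.2 and 49.5 CPM at P0 and 56.2, 46.1, 49.3, 54.8 and 46.6 CPM at P3, with a difference in the other direction (0.28 ± 0.12 SE). Replicate 4 of P0 was the only P0 library inside the P3 range of Tek. The remaining junction and adhesion genes ranged in log2 fold change from -0.40 for Esam to 0.27 for Icam2. The remaining receptors ranged from -0.35 for Tie1 to -0.05 for the co-receptor gene Eng. Among the transcription factors, Sox17 and Erg had -0.64 ± 0.27 and -0.46 ± 0.16 and their P0 and P3 libraries did not overlap, whereas Sox7 and Sox18 had 0.22 and 0.12. The 6 genes of vessel function ran from -0.61 for the nitric oxide synthase gene Nos3 to 0.18 for Plvap.

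The tip cell gene Esm1 was the most changed member. It was scarce at birth, at 1.72, 1.47, 1.71 and 2.35 CPM in WT, and reached 4.04, 3.56, 4.57, 4.15 and 5.81 CPM in the P3 WT libraries. The lowest P3 library was above the highest P0 library, a 2.43-fold rise (log2 fold change 1.28 ± 0.27 SE, edgeR adjusted p = 0.0065) that stayed past the threshold in 28 of 29 alternatives. Apln had 15.5, 11.6, 16.3 and 13 CPM at P0 and 14.8, 22.0, 26.4, 28.1 and 19.0 CPM at P3. Its groups overlapped only through P3 replicate 1, and the difference did not pass the test (0.64 ± 0.29 SE, edgeR adjusted p = 0.156). Dll4 showed no such difference, with 13.8, 14.1, 10.9 and 11.1 CPM at P0 and 9.90, 13.4, 13.2, 14.4 and 9.42 CPM at P3 (log2 fold change -0.06 ± 0.20 SE). The partners of these ligands, the apelin receptor gene Aplnr and the endothelial Notch receptor gene Notch4, had log2 fold changes of 0.32 ± 0.34 and -0.22 ± 0.32 SE.

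The 3 lymphatic genes did not move as one. Lyve1 was 76.0, 97.2, 107 and 113 CPM in P0 WT and 71.8, 59.1, 67.9, 81.3 and 75.9 CPM in P3 WT. Only P0 replicate 1 overlapped the P3 values, and the log2 fold change was -0.45 ± 0.16 SE (edgeR adjusted p = 0.0764). Prox1 was 11.2, 14.8, 13.5 and 14.7 CPM at P0 and 16.7, 16.7, 22.4, 21.2 and 16.3 CPM at P3. Every P3 value was above every P0 value, with a log2 fold change of 0.46 ± 0.16 SE that just missed the threshold (edgeR adjusted p = 0.0556). Flt4 was 36.9, 37.7, 40.0 and 38.9 CPM at P0 and 29.9, 30.5, 42.9, 39.8 and 28.6 CPM at P3, a wider range at P3 that held the P0 values (log2 fold change -0.17 ± 0.16 SE). Skeletal muscle, which also makes Prox1, had 4 of 9 marker genes lower and none higher in WT, with a median log2 fold change of -1.01. The macrophage list, whose cells can carry Lyve1, had 7 of 11 genes higher and none lower (median 0.61, summed level 379 to 638 CPM at P0 and 707 to 807 CPM at P3). Their part in the lymphatic values was not tested.

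Within block A (3 WT libraries against 3) the median difference over the 36 genes was -0.11, with 22 below 0. Within block B (1 against 2) it was -0.36, with 29 below 0. The P0 WT library of block B was replicate 4, the one without clear sex markers. With block as a term 18 of the 36 genes were called, 4 higher and 14 lower, against 25.8% of all genes in that fit. The 4 higher genes were Esm1 (1.29), Apln (0.72), Prox1 (0.49) and Cd34 (0.34), and Lyve1 (-0.49), Pecam1 (-0.41) and Cdh5 (-0.34) were among the lower ones. With an epithelial score as covariate the median was -0.40, with 29 below 0. Esm1 was then called higher and Esam (-0.64) and Sox17 (-1.16) lower, against 6.81% of all genes called. Robo4 (-1.14), S1pr1 (-0.76) and Pecam1 (-0.58) had differences at least as large as without the score but were not called in that fit. Leaving out P0 replicate 3 or P3 replicate 5 of WT brought the median without the score to -0.16 and -0.15.

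**Figure D2:**
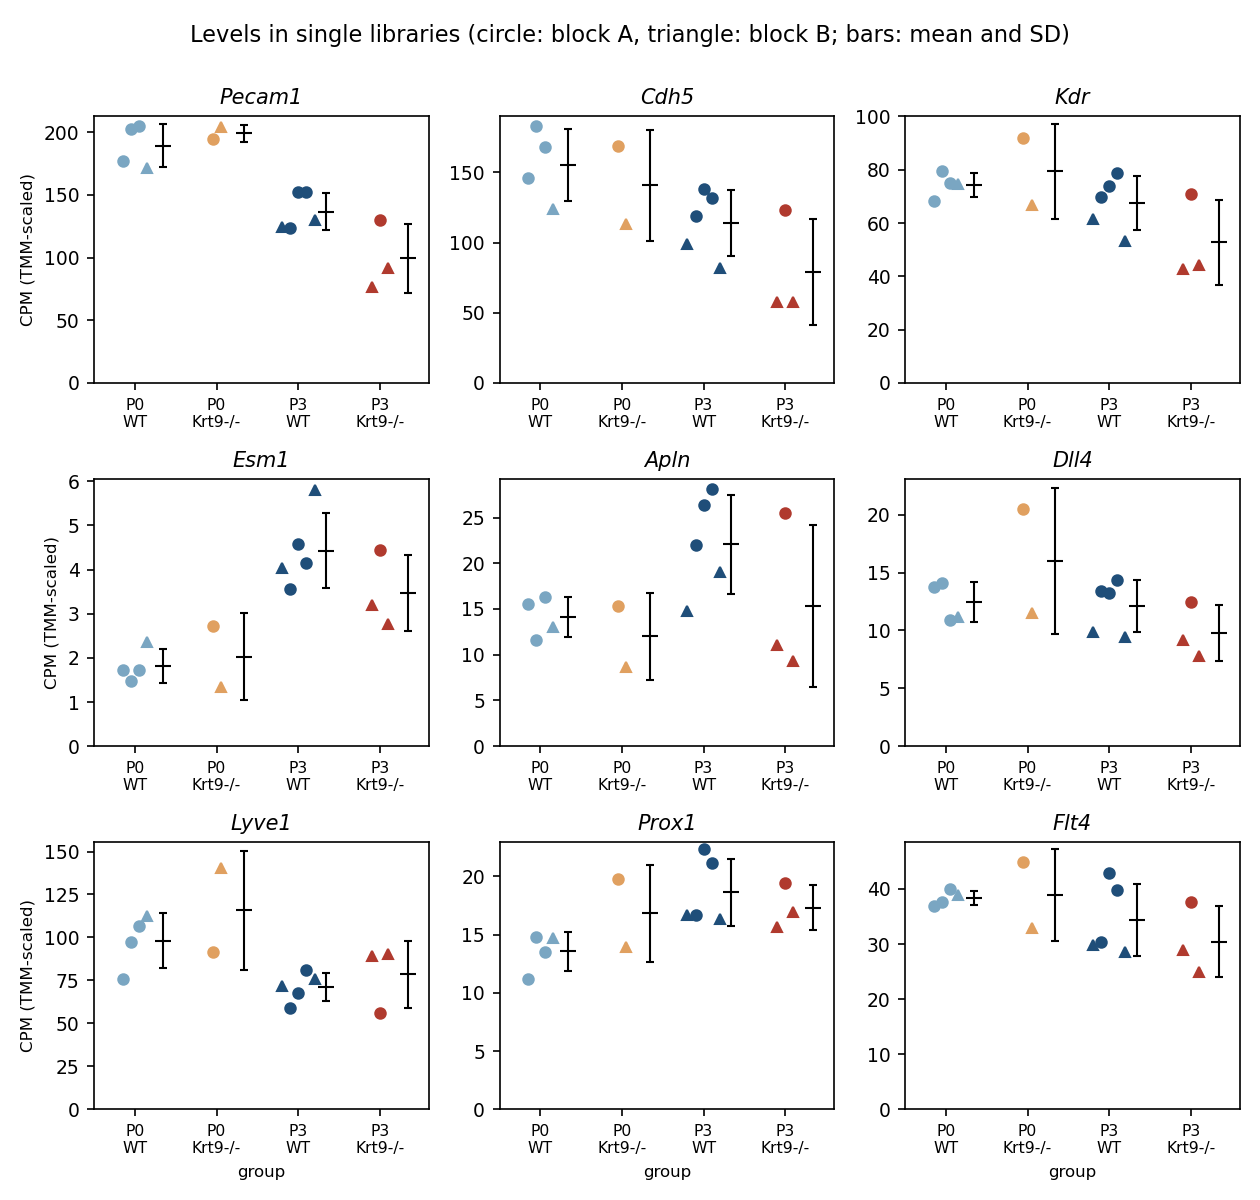
CPM (vertical axis, from 0) of 3 pan-endothelial, 3 tip cell and 3 lymphatic genes in each library by group, with circles for block A, triangles for block B and bars for the mean and SD of the group. Pecam1 lies between 123 and 152 CPM in P3 WT and between 172 and 205 CPM in P0 WT, and the P3 Krt9-/- library of block A lies above those of block B for Cdh5, Kdr and Apln.

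In Krt9-/- paws 3 junction and adhesion genes fell from P0 to P3. Most of the other endothelial genes had a lower estimate that did not pass the test. The comparison has 2 libraries at P0 and 3 at P3. Of the 36 genes 3 were called, all lower, against 0.43% of all genes called lower and 0.768% called in either direction. The median log2 fold change was -0.62, with 31 genes below 0, against -0.01 over all genes. Without P0 replicate 1 of Krt9-/- it was -0.39 and without P3 replicate 2 it was -0.91. By role the median was -0.68 for the pan-endothelial, 0.37 for the tip cell and -0.34 for the lymphatic genes. Groups did not overlap for 18 of the 36 genes, against 25.6% of all genes.

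Pecam1 was 194 and 204 CPM in the P0 Krt9-/- libraries and 76.6, 129.8 and 91.9 CPM at P3. It was 2.05-fold lower (log2 fold change -1.03 ± 0.18 SE, edgeR adjusted p = 0.0257). Esam, a junction protein of endothelium and platelets, went from 43.7 and 41.2 CPM to 18, 28.7 and 17.7 CPM and was 2.00-fold lower (log2 fold change -1.0 ± 0.20 SE, edgeR adjusted p = 0.0367). Emcn, the capillary and venous sialomucin whose promoter is shown above, had 27.1 and 32.2 CPM at P0 and 14.5, 20.2 and 16.2 CPM at P3, 1.78-fold lower (log2 fold change -0.83 ± 0.17 SE, edgeR adjusted p = 0.0373). For all 3 genes the P3 library of block A, replicate 2, was the highest of the P3 values. Without P3 replicate 1 or P3 replicate 3 of Krt9-/- none of the 36 genes was called. Over all genes 2 and 67 were then called, against 166 with all 14 libraries. Without P0 replicate 2 of Krt9-/-, which leaves 1 library at P0, the median log2 fold change over the 36 genes was -0.87. Without P0 WT replicate 1, or P3 WT replicate 2 or 4, only Pecam1 was called, against 42, 45 and 48 of all genes called lower. With P3 replicate 2 of Krt9-/- left out, 12 of the 36 were called, all lower, against 1.19% of all genes called lower in that fit. In P0 WT, Esam and Emcn stood at 35.5, 37.0, 42.9 and 39.1 CPM and at 25.4, 30.7, 35.7 and 31.7 CPM. At P3 the WT values were 25.9, 28.3, 32.2, 33.3 and 26.3 CPM for Esam and 26.2, 21.7, 22.1, 26.1 and 26.0 CPM for Emcn. The WT groups did not overlap for Esam and overlapped for Emcn, and the log2 fold changes of -0.40 ± 0.15 and -0.33 ± 0.12 SE did not pass the test.

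Cdh5 showed how far the P3 Krt9-/- libraries lay apart: 169 and 113 CPM at P0 and 57.3, 123 and 57.5 CPM at P3, the second of them from block A (log2 fold change -0.82 ± 0.33 SE, not called). Kdr was 91.9 and 66.9 CPM and then 42.7, 71.0 and 44.4 CPM, and Flt1 48.9 and 31.0 CPM and then 16.4, 36.8 and 23.2 CPM. Tek was 60.6 and 47.0 CPM and then 39.8, 43.7 and 41.3 CPM, without overlap but not called (-0.38 ± 0.16 SE, edgeR adjusted p = 0.259). The VEGF receptor genes and Cdh5 thus had a high block A library and low block B libraries at P3, and the 3 values of Tek lay close together. Among the genes called in WT, Cd34 was 235 and 323 CPM and then 319, 262 and 299 CPM, and S1pr1 46.1 and 52.3 CPM and then 32.7, 41.1 and 26.0 CPM. Robo4 was 28.9 and 25.1 CPM and then 8.06, 21.2 and 9.83 CPM, and Ecscr 19.3 and 29.9 CPM and then 14.2, 11.9 and 15.6 CPM. None of these 4 was called in Krt9-/- paws, and their log2 fold changes ran from -1.08 for Robo4 to 0.07 for Cd34.

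Esm1 was 2.73 and 1.34 CPM at P0 and 3.21, 4.44 and 2.77 CPM at P3 in Krt9-/-, without overlap and not called (0.76 ± 0.37 SE, edgeR adjusted p = 0.33). Apln was 15.3 and 8.67 CPM and then 11.0, 25.5 and 9.34 CPM, so the block A library at P3 was the only one above the P0 values. Dll4 was 20.5 and 11.5 CPM and then 9.15, 12.5 and 7.76 CPM, with overlap. Lyve1 was 91.5 and 140.4 CPM and then 89.0, 56.0 and 90.6 CPM, and here the block A library was the lowest at P3. Prox1 was 19.7 and 13.9 CPM and then 15.6, 19.5 and 16.9 CPM, and Flt4 44.8 and 33.0 CPM and then 28.9, 37.6 and 24.9 CPM. No tip cell or lymphatic gene passed the test.

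Within block A (1 Krt9-/- library at each day) the median log2 difference over the 36 genes was -0.36, with 30 below 0, and within block B (1 against 2) it was -0.69, with 32 below 0. The block A library was labelled male at P0 and female at P3, so day and sex cannot be told apart there. With block as a term 18 genes were called, all lower, against 2.87% of all genes called lower and 4.95% called in either direction in that fit. Pecam1 (-1.02), Robo4 (-1.09), Cdh5 (-0.80), Kdr (-0.56) and Flt1 (-0.59) were among the 18, and Lyve1 (-0.62) was the one lymphatic gene. The epithelial score, the mean log2(CPM + 1) of 14 epithelial genes, was 8.68 and 8.50 in P3 Krt9-/- replicates 1 and 3, where the pan-endothelial mean on that scale was 4.63 and 4.76, and 7.85 in replicate 2, where it was 5.29. At P0 the order was another: the Krt9-/- libraries had scores of 8.16 and 7.78 with pan-endothelial means of 5.59 and 5.48, and the WT libraries scores of 7.70 to 8.67 with means of 5.44 to 5.61. With that score as a covariate no endothelial gene was called in Krt9-/-, against 0.264% of all genes, and the median was -0.45. The part of epithelial content in the difference was not tested.

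**Figure D3:**
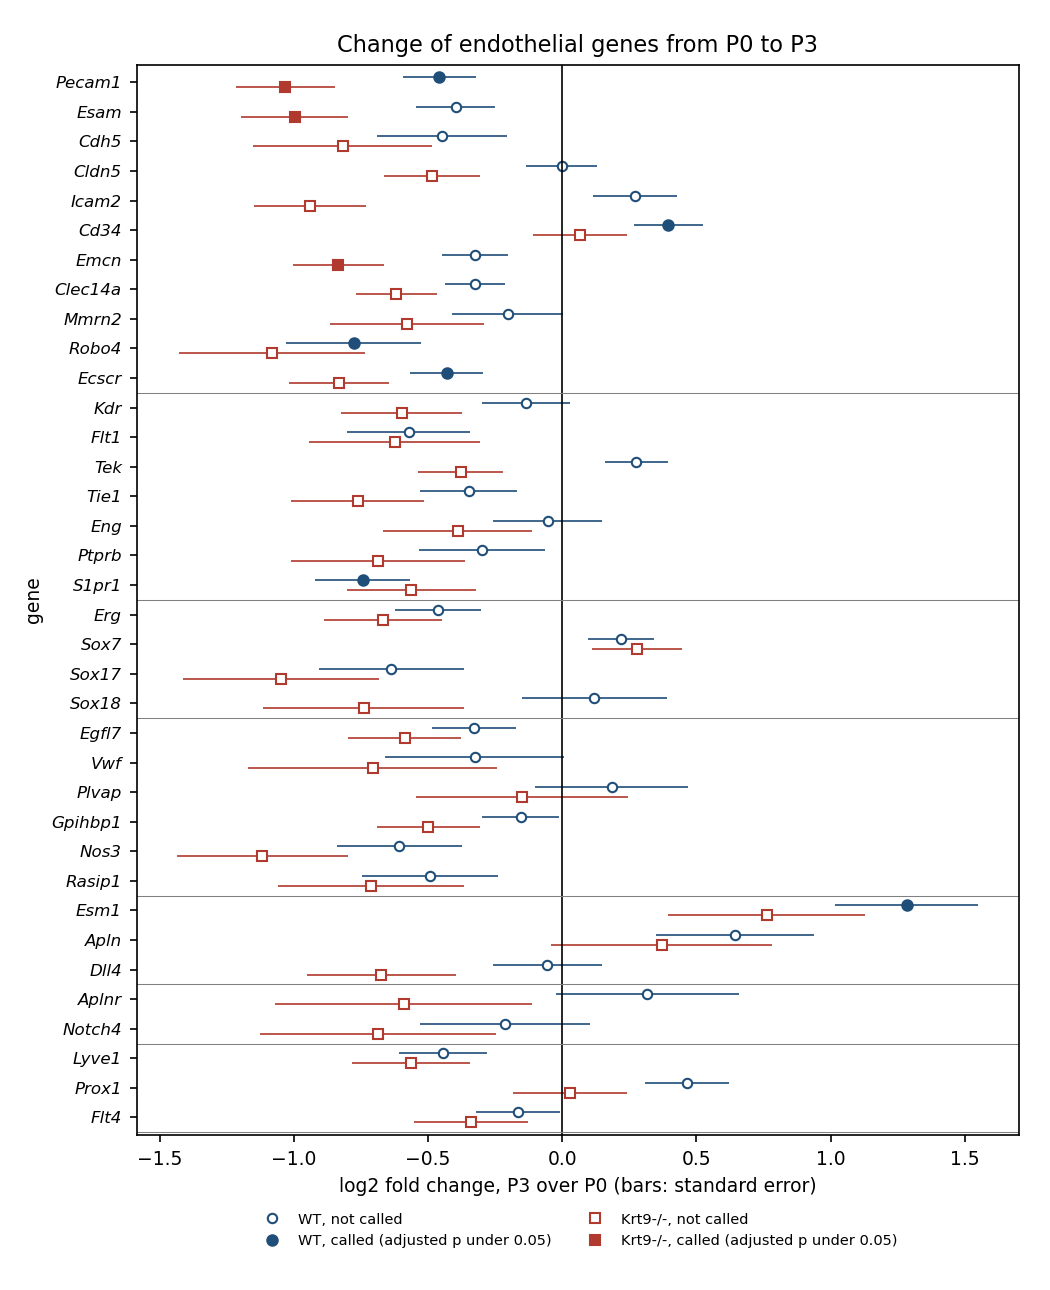
Log2 fold change from P0 to P3 (horizontal axis, with standard errors) of each gene (rows, in role order) in WT (blue circles) and Krt9-/- (red squares), filled where the gene was called. Most pan-endothelial points lie left of 0 in both genotypes, and Esm1 lies at 1.28 in WT and 0.76 in Krt9-/-.

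The tip cell and lymphatic genes were set against the pan-endothelial level of the same library, as their log2(CPM + 1) minus the mean of the 28 pan-endothelial genes. That mean was 5.44 to 5.61 in P0 WT, 5.48 to 5.59 in P0 Krt9-/-, 5.02 to 5.47 in P3 WT and 4.63 to 5.29 in P3 Krt9-/-. Relative to it, Esm1 was higher at P3 by 1.20 in WT and 1.23 in Krt9-/-, and every P3 library (-3.10 to -2.26) was above every P0 library (-4.26 to -3.69). Apln was higher by 0.85 and 0.89, with no overlap of days in either genotype (P0 -2.21 to -1.40, P3 -1.39 to -0.57). Prox1 was higher by 0.69 in WT and 0.70 in Krt9-/-, and again every P3 library (-1.09 to -0.58) was above every P0 library (-1.83 to -1.22). In Krt9-/- the level of Prox1 itself was nearly the same (means of 16.8 CPM at P0 and 17.3 CPM at P3). The pan-endothelial mean there went from 5.54 to 4.89. In WT the mean of Prox1 was 13.6 CPM at P0 and 18.6 CPM at P3. Dll4 and Flt4 moved by 0.21 and 0.09 in WT and by 0.02 and 0.30 in Krt9-/-. Lyve1 moved by -0.19 and 0.09, and its P3 Krt9-/- values split by block into 1.86 and 1.76 in B and 0.54 in A. The 2 days did not overlap in either genotype for these 3 genes, Esm1, Apln and Prox1, and overlapped in at least 1 genotype for the other 5.

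A separate edgeR fit held the pan-endothelial mean as a covariate, with a slope of its own for each gene, so it is not the subtraction. In WT, Esm1 (1.37), Apln (1.14), Aplnr (0.82) and Prox1 (0.64) were called higher and Lyve1 (-0.63) lower, so 5 of the 8 genes were called against 22.2% of all genes in that fit. In Krt9-/-, Apln was called higher (1.57, edgeR adjusted p = 0.0112) and Lyve1 lower (-1.07, edgeR adjusted p = 0.0411), against 7.53% of all genes. The covariate itself ran from 5.48 to 5.59 at P0 and from 4.63 to 5.29 at P3 there, without overlap. It also differed by block, with means of 5.45 for A and 5.08 for B. Day effects in Krt9-/- thus rest on the fitted slope and cannot be told apart from the pan-endothelial level. The CPM values of Apln overlapped between days. In WT the covariate overlapped between days (5.44 to 5.61 and 5.02 to 5.47). For Lyve1 in Krt9-/- the fit and the subtraction (0.09) differed in direction. Dll4, Notch4 and Flt4 were called in neither genotype. No genotype difference and no interaction was called among the 8 in this fit.

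**Figure D4:**
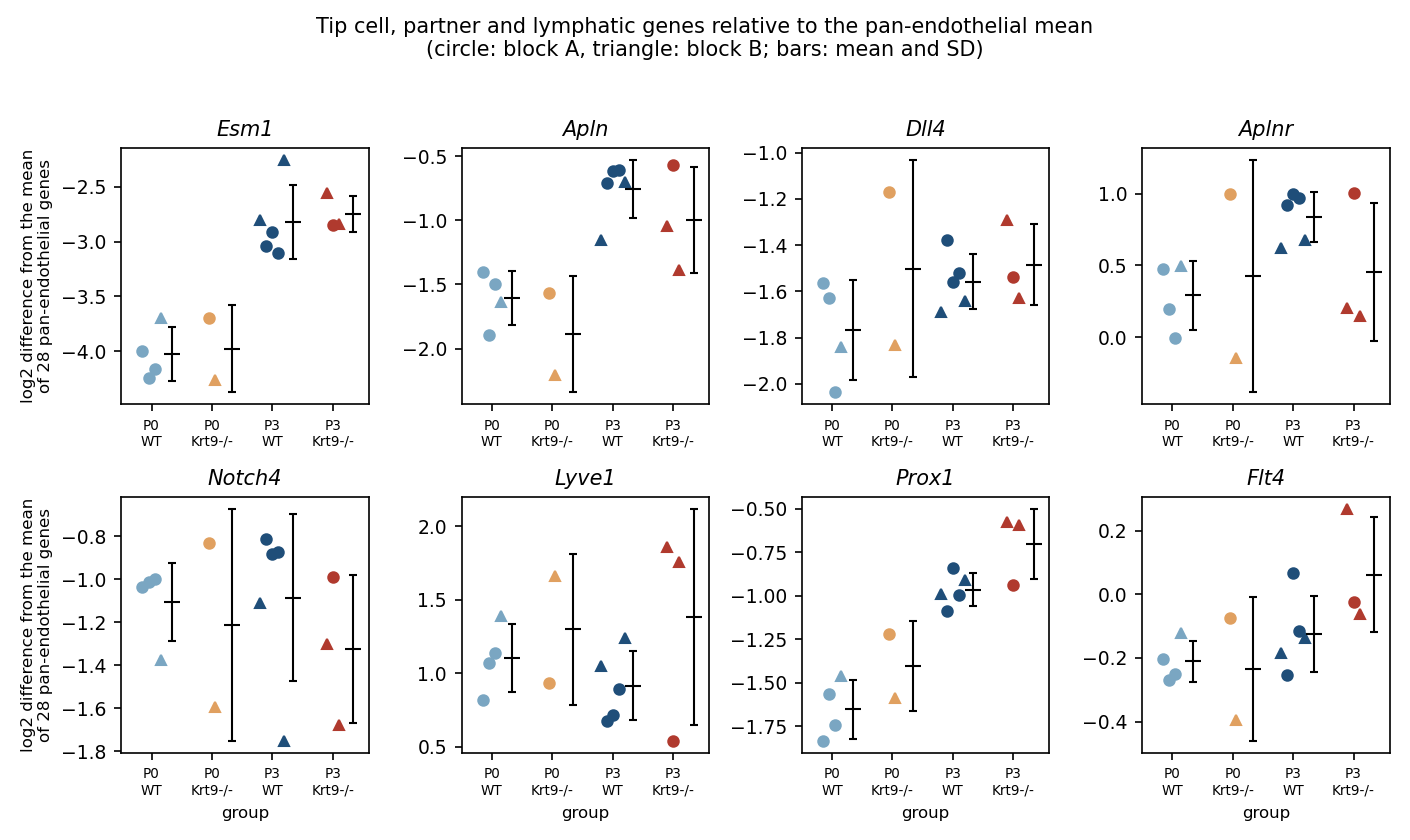
Log2(CPM + 1) of each tip cell, partner and lymphatic gene minus the mean of the 28 pan-endothelial genes (vertical axis) in each library by group, with circles for block A, triangles for block B and bars for the mean and SD. Esm1, Apln and Prox1 lie higher in the P3 groups of both genotypes, and Lyve1 in P3 Krt9-/- ranges from 0.54 to 1.86.

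At P0 the endothelial genes of Krt9-/- and WT paws were not told apart in the main fit. edgeR called 0 of the 36, DESeq2 also 0, and 2 genes had an unadjusted p under 0.05, against 5.96% of all genes. Over all genes 0.00463% were called. The median log2 fold change was 0.04, with 15 genes below 0. The 2 genes were Icam2, an adhesion molecule of resting endothelium, and Tek. Icam2 was 9.01, 9.89, 8.18 and 12.1 CPM in WT and 14.9 and 16.6 CPM in Krt9-/-, without overlap (log2 fold change 0.69 ± 0.19 SE, edgeR adjusted p = 0.831). It was the only one of the 36 whose groups did not overlap, against 11.3% of all genes. Of the tip cell and lymphatic genes, log2 fold changes ran from -0.24 for Apln to 0.35 for Dll4. In block A alone Aplnr (0.84) and Tek (0.62) were called higher, against 2.89% of all genes in that fit. There 3 WT libraries face 1 Krt9-/- library, which is assumed to vary like the other groups. In block B, with 1 library each, Aplnr differed by -0.60. The WT library there was replicate 4, the one without clear sex markers. Leaving out Krt9-/- replicate 1 or 2 moved the P0 median to -0.17 and 0.16. With block as a term and without P0 WT replicate 4, a fit added after seeing the data, 3 of the 36 were called higher. Over all genes 560 of 21229 were called higher in that fit.

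At P3, 35 of the 36 genes had a lower estimate in Krt9-/- than in WT, and none passed the test. Only Lyve1 had a higher one (0.11 ± 0.18 SE). The median was -0.34 over the 36 genes, against -0.01 over all genes, and -0.34 for the pan-endothelial, -0.36 for the tip cell and -0.12 for the lymphatic genes. edgeR and DESeq2 both called 0 of the 36, and 0.00463% of all genes were called by edgeR. An unadjusted p under 0.05 was reached by 7 of the 36, against 6.67% of all genes. Groups did not overlap for Emcn and Tek, against 2.56% of all genes.

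The median genotype difference at P3 differed between the blocks. With block as a term it was -0.30, with 34 below 0 and none of the 36 called, against 0.0324% of all genes. Emcn was 26.2, 21.7, 22.1, 26.1 and 26.0 CPM in WT and 14.5, 20.2 and 16.2 CPM in Krt9-/- (log2 fold change -0.57 ± 0.14 SE, edgeR adjusted p = 0.694). Robo4 had the lowest estimate (-0.68 ± 0.29 SE), from 15.5, 20.4, 23.6, 26.2 and 16.5 CPM in WT and 8.06, 21.2 and 9.83 CPM in Krt9-/-. For Emcn all 3 Krt9-/- libraries lay below all WT values. Its level over all groups differed by -0.01 between blocks (edgeR adjusted p = 0.945). Its genotype difference at P3 was still -0.19 within block A and -0.73 within block B. For Robo4 the Krt9-/- library of block A lay within the WT values and both of block B below them. Over the 36 genes the median difference was -0.06 within block A, where 1 Krt9-/- library faces 3 of WT, and -0.37 within block B, where there are 2 of each. All 28 pan-endothelial genes were below 0 within block B and 21 of 28 within block A. In a fit of block B alone only Aplnr was called (-0.87, edgeR adjusted p = 0.0344), against 0.499% of all genes. Without Krt9-/- replicate 2, the block A library, 5 genes were called lower (Cdh5, Esam, Pecam1, Robo4 and Tie1) and the median was -0.68, against 0.189% of all genes called lower in that fit. Without replicate 1 or replicate 3 none was called, and the median was -0.22 and -0.27.

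The 2 libraries with the lowest endothelial levels also had the highest epithelial ones at P3. The epithelial score was 8.68 and 8.50 in Krt9-/- replicates 1 and 3, 7.85 in replicate 2 and 7.68 to 8.2 in P3 WT. All 14 epithelial genes had a higher estimate in Krt9-/- at P3 (median 0.49), with none called. With the score as a covariate, the median of the 36 endothelial genes at P3 was -0.12 and none was called. The part of epithelial content in the endothelial difference was not tested. Defining genes of other vessel cells were lower in the estimate as well: 8 of 9 pericyte genes (median -0.13) and 7 of 7 vascular smooth muscle genes (median -0.49). So were lists not of vessels: 9 of 9 skeletal muscle (-0.32), 8 of 10 fibroblast (-0.17), 10 of 10 proliferation (-0.17) and 7 of 11 macrophage genes (-0.06). Medians were above 0 for the hypoxia response (0.22), platelet (0.20) and erythroid (0.74) lists. None of these genes was called.

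The difference between the genotype differences at P3 and P0, the interaction, had a median of -0.38 over the 36 genes, with 34 below 0, against -0.02 over all genes. edgeR called 0 of the 36 and 0% of all genes, DESeq2 called 1 (Icam2, lower), and 6 genes had an unadjusted p under 0.05, against 7.6% of all genes. Icam2 had the lowest value (-1.21 ± 0.26 SE, edgeR adjusted p = 0.354), being higher in Krt9-/- than in WT in all P0 libraries and at 12.2, 12.8, 11.1, 12.0 and 9.88 CPM in WT and 7.22, 10.5 and 7.34 CPM in Krt9-/- at P3. In the main fit no gene carried a larger drop in Krt9-/- than in WT past the edgeR threshold. With block as a term and without P0 WT replicate 4, a fit added after seeing the data, 8 were called lower. Over all genes 452 of 21229 were called lower in that fit. With no filter on low counts 3 were called lower, against 46 of 36822 genes. The interaction median with that epithelial covariate was -0.01, with 18 of 36 below 0, and in the fit of block A alone it was -0.16. Without P0 Krt9-/- replicate 1 it was -0.18, without P0 replicate 2 it was -0.62 and without P3 replicate 2 it was -0.71.

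**Figure D5:**
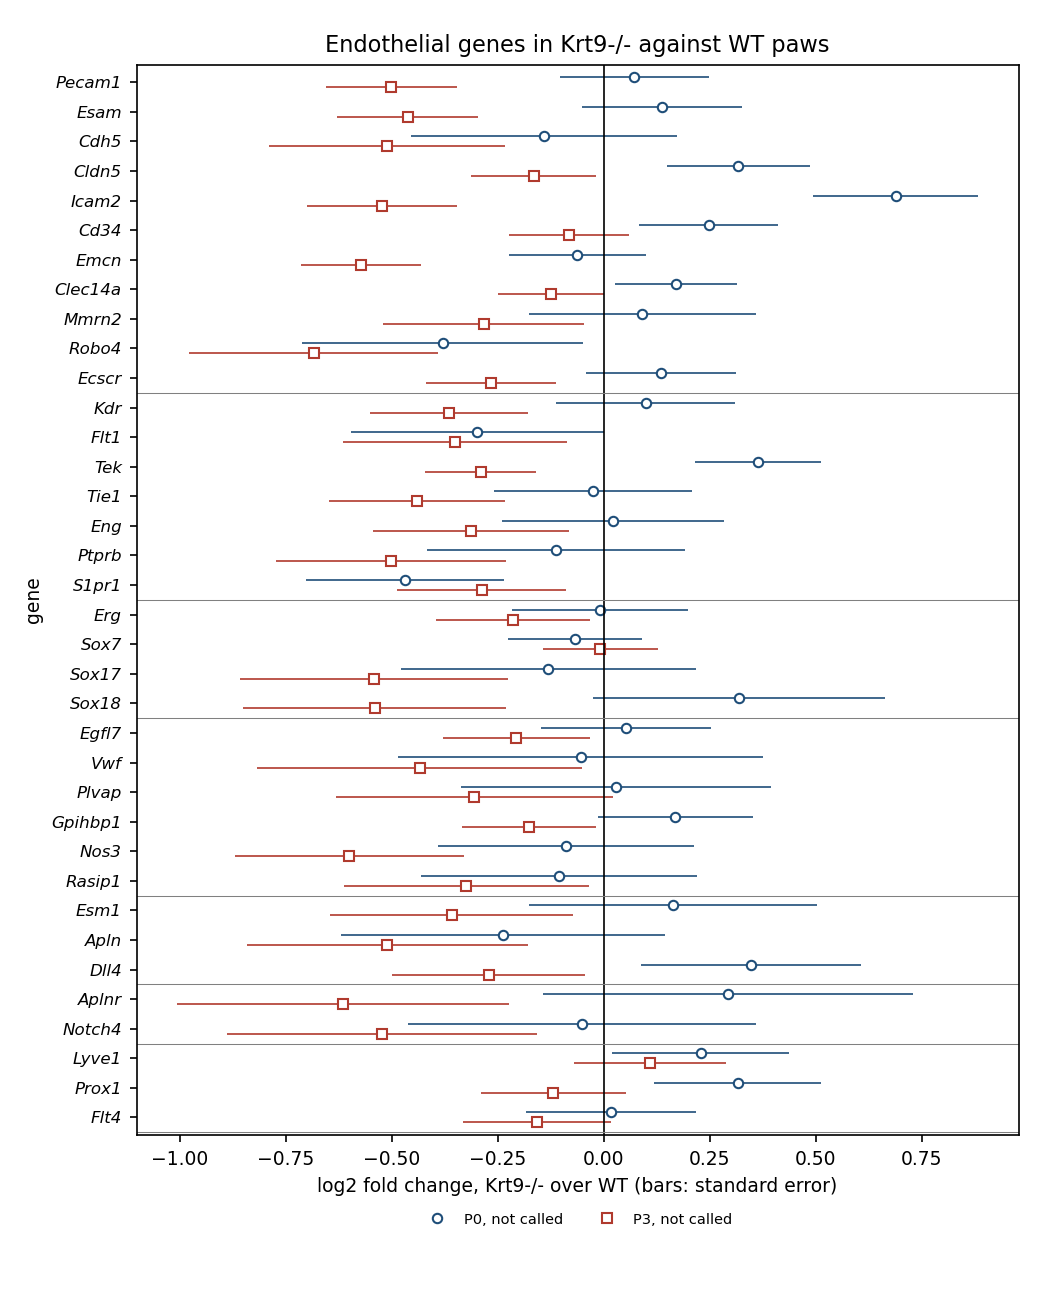
Log2 fold change of Krt9-/- over WT (horizontal axis, with standard errors) of each gene (rows, in role order) at P0 (blue circles) and P3 (red squares), all open because none was called. The P0 points lie on both sides of 0 and all P3 points but that of Lyve1 lie to its left.

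The members also varied together within groups. Over the 14 libraries, the deviations of each gene's log2(CPM + 1) from its group mean were compared with those of the mean of the pan-endothelial genes (without the gene itself where it belongs to them). Pearson's r was highest for Robo4 (0.96), Esam (0.94) and Tie1 (0.93), and 0.81 to 0.92 for Kdr, Flt1, Eng, Ptprb, Cdh5, Vwf, Nos3 and Flt4. It was negative for Cd34 (-0.61), Ecscr (-0.47), Lyve1 (-0.47), Clec14a (-0.30), Gpihbp1 (-0.28) and Egfl7 (-0.20). Those 6 genes also had the 6 highest estimates of block B over block A, and the libraries share that block structure, so these values describe the libraries and carry no test. Among the tip cell genes r was 0.84 for Apln, 0.67 for Dll4 and 0.22 for Esm1, and for the lymphatic Prox1 it was 0.67.

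Other genes of the same pathways were read from lists by function. Of 18 genes for vessel ligands and guidance, 3 were higher and 2 lower in WT at P3 (median -0.08). Vegfd, a ligand of the Flt4 receptor, was 12.9 to 18.4 CPM at P0 and 5.31 to 7.57 CPM at P3, 2.37-fold lower (log2 fold change -1.25 ± 0.25 SE, edgeR adjusted p = 0.0048). Angpt1, the ligand of the Tek receptor, was 1.72-fold higher (0.78 ± 0.15 SE, edgeR adjusted p = 0.0048). The chemokine gene Cxcl12 was 1.66-fold higher (0.73 ± 0.14 SE, edgeR adjusted p = 0.00355). Vegfa, the main ligand of Kdr and Flt1 and named for that after the values were seen, was 41.7 to 52.1 CPM in P0 WT and 45.8 to 53.8 CPM in P3 WT (0.04 ± 0.12 SE, not called). The Tek and Flt4 receptors thus had a ligand called in WT while the receptors themselves were not called.

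Of 12 further lymphatic genes 3 were higher and 3 lower in WT (median -0.08). Stab2, a scavenger receptor of lymphatic and sinusoidal endothelium, was 0.496 to 1.73 CPM at P0 and 4.55 to 8.42 CPM at P3, 6.05-fold higher (log2 fold change 2.60 ± 0.49 SE, edgeR adjusted p = 0.00414). Ccl21a, a lymphatic chemokine gene that has near-identical copies in the mouse genome, was 1.81-fold higher with overlapping groups (0.86 ± 0.22 SE, edgeR adjusted p = 0.0195), and Sema3d had 0.39 ± 0.11 SE (edgeR adjusted p = 0.0307). The 3 lower genes, named after their values were seen, were Pdpn, Reln and Nts. The further lymphatic list therefore held changes in both directions, as the 3 lymphatic members had estimates in both.

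Of 24 further blood endothelial genes 2 were lower and none higher in WT (Cyyr1 -1.06 ± 0.27 SE, edgeR adjusted p = 0.0163, and Gata2 -0.67 ± 0.18 SE, edgeR adjusted p = 0.0219), with a median of 0.01. In the Notch and arterial or venous identity list 1 of 13 was lower, the adhesion gene Sele of activated venules (-1.24 ± 0.28 SE, edgeR adjusted p = 0.00917). Of 9 pericyte genes Rgs5 was higher (0.67 ± 0.15 SE, edgeR adjusted p = 0.00783) and Mcam lower (-0.63 ± 0.15 SE, edgeR adjusted p = 0.0131). Of 7 vascular smooth muscle genes 1 was lower (Myocd). The wider blood endothelial list thus had a median near 0 in WT, against -0.33 for the 28 pan-endothelial members, and the difference was not tested. In Krt9-/- paws none of these 6 vessel lists had a called gene, and the 24 further blood endothelial genes had a median of -0.44, with 21 below 0. Platelet genes, which could add to Pecam1, Esam and Vwf, had none of 7 called in WT, with Pf4 at 54.6 to 81.3 CPM at P0 and 46.9 to 86.0 CPM at P3. In no list was any gene called for genotype or for the interaction.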

How the data were processed

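The deposited table held raw counts per gene for 14 libraries. Per the submitters' processing notes the authors aligned reads to GRCm39 with STAR 2.7.10a and counted with featureCounts, and the notes also name edgeR and limma. The sources used here give neither the annotation nor whether strand was used. All values were whole numbers. Identifiers were matched to symbols for 52073 of 56691 rows, and rows without a symbol held 0.623% of the counts. Lengths, exon overlaps and promoters came from a GRCm38 reference, and none of its coordinates was used with the counts.

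Counts were tested with edgeR 4.0.16 (filter by group, TMM scaling, quasi-likelihood test) in 1 fit of all 14 libraries with group and labelled sex, 9 residual degrees of freedom and Benjamini-Hochberg adjustment over 21619 genes. Called means an adjusted p under 0.05. CPM values are TMM-scaled, and log2 levels use a pseudocount of 1. The code was tested on simulated data. Replicates are libraries, and their labels do not say whether each is 1 animal, so p-values measure the spread between these libraries. Precision rests on total counts of 28947715 to 41004173 per library.

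The members, lists and tests were chosen with earlier results of these data known. Per-library values are given for the tip cell and lymphatic genes, for Pecam1, Cdh5, Kdr, Flt1 and Tek, and for called members. In other lists up to 3 called genes with the smallest adjusted p were named, or the highest by CPM where none was called. Alternatives were DESeq2 1.42.0, limma 3.58.1 voom, other scalings and filters, no sex term, litter as a block, column block, epithelial or pan-endothelial score as covariate, only the groups compared, and each library left out. The fits of 1 block alone had no sex term. The fit with block and without P0 WT replicate 4 was added after seeing the data. Pairing came from the litter labels: the pairs that share a litter within a day had residual correlations of 0.206 (P0 WT 1 and Krt9-/- 1) and -0.00258 (P3 WT 2 and 3), and the consensus correlation used with litter as a block was 0.555.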

Additional observations from a re-analysis of the deposited data

Results flagged for a closer look

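The 36 genes in the 2 WT groups, of 4 and 5 libraries, gave 72 tests for a single library far from the others, and 2 found one. Chance gives about 1 in 20 groups. Tek in WT replicate 4 of P0 was 49.5 CPM, while the other 3 libraries of that group were at 38.6 to 40.3 CPM. That library, labelled female, had Xist at 0.181 CPM and Ddx3y at 0.155 CPM and was the only one of block B in its group, and the part of either in the Tek value was not tested. Sox18 in WT replicate 1 of P0 was 46.9 CPM, while the other 3 libraries were at 41.5 to 41.8 CPM.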

How the results depend on the processing

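Single-gene results kept their direction wherever they were called: over all alternatives 4777 values kept their side of the threshold, 178 gained a call, 89 lost one and 0 reversed. Calls over all genes moved as well, so each count of the 36 members is followed by the count over all genes in the same direction. For day in WT, 2 members were higher (1836 of all genes) and 4 lower (1745). No sex term gave 1 higher (1750). Litter as a replicate block gave 1 higher (1532) and 3 lower (1476). The epithelial score gave 1 higher (904) and 2 lower (569). Only the groups compared gave 4 higher (2091) and 8 lower (1794). Library size only gave 1 lower (1062) and no filter 8 lower (1931). Column block as a term gave 4 higher (2714) and 14 lower (2856), block A alone 8 higher (3283) and 9 lower (3137), and block B alone 0 higher (352) and 1 lower (134).

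For day in Krt9-/-, 3 members were lower (93 of all genes). The number was 0 in block A (9), 0 with the epithelial score (37), 0 with only the groups compared (0) and 1 with no sex term (28). It was 4 with litter as a replicate block (76), Icam2 being added, 8 by DESeq2 (460), 14 with no filter (580), 18 with the block term (620) and 20 in block B (573). For genotype, block A alone gave 2 higher at P0 (330), and at P3 no filter gave 2 lower (55) and block B 1 lower (12). For the interaction no filter gave 3 lower (46) and DESeq2 1 (8). Litter as a replicate block changed no other call count. Chosen after seeing the data, the block term without P0 WT replicate 4 gave 8 higher (3235) and 9 lower (3551) in WT, 20 lower in Krt9-/- (939), 3 higher for genotype at P0 (560) and 8 lower for the interaction (452).

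Each library was left out in turn, and the counts here leave aside the 2 of P0 Krt9-/-. In WT 1 to 4 members were higher (900 to 2173 of all genes) and 0 to 8 lower (725 to 2159). In Krt9-/- 0 to 12 were lower (1 to 258), and for genotype at P3 0 to 5 were lower (0 to 41). For genotype at P0 and for the interaction the number was 0, against 1 to 3 and 0 to 47 of all genes in either direction. Of the members called in WT, S1pr1 kept its call in 24 of 28 alternatives, Pecam1 in 18, Robo4 in 14, Ecscr in 13 and Cd34 in 12. In Krt9-/-, Pecam1 kept it in 21 of 28 and Esam and Emcn in 17. The cause of these moves was not tested. Comparisons with P0 Krt9-/- rest on 2 libraries, 1 in each block, and where a block or a left-out library leaves a group with 1 library, that library is assumed to vary like the other groups.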

Other observations

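Genes called in WT were higher at P3 in the proliferation list and mostly lower in the hypoxia response list. Of 10 proliferation genes 6 were higher in WT at P3 and none lower (median 0.55), with Top2a at 143 to 176 CPM and then 237 to 282 CPM. Of 13 hypoxia response genes 1 was higher (Ankrd37, 1.39 ± 0.40 SE, named after its value was seen) and 4 were lower (median -0.44), and the lowest adjusted p was that of Ndrg1 (-1.07 ± 0.13 SE, edgeR adjusted p = 0.0004). In Krt9-/- paws none of either list was called, with medians of 0.11 and 0.04.

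Angptl4, a secreted inhibitor of the lipase that Gpihbp1 anchors to capillaries, was 6.98 to 25.1 CPM in P0 WT and 50.6 to 70.6 CPM in P3 WT (log2 fold change 2.07 ± 0.44 SE, edgeR adjusted p = 0.011). Gpihbp1 itself was not called (-0.16 ± 0.14 SE). In P0 Krt9-/- paws the Angptl4 values were 21.2 to 78.2 CPM, and the day difference there was 0.09 ± 0.58 SE. Angptl4 was named after its values were seen. It was 1 of the 3 genes for vessel ligands and guidance called higher in WT.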
